A study of Mus musculus with 8 samples.

Results

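The genes described here encode the nuclear subunits of respiratory complex I. They were chosen by name and biotype: protein-coding genes of the table whose symbol begins with Nduf, followed by a, b, ab, c, s or v and a digit. This gave 38 of 54532 genes. Of these, 37 had an FPKM (fragments per kilobase of gene length, scaled to the depth of the library) above 1 in at least 1 library, and the remaining member, *Ndufb2*, lay between 0.717 and 0.952 in every library. RNA was measured in spermatocytes of C57BL/6J mice that carry or lack Cre. The MFN2 WT mice were Mfn2 loxp/loxp and the MFN2 cKO mice were Mfn2 loxp/loxp with Stra8-Cre, so the floxed allele was common to both, although the methods allow control littermates with a single floxed allele. Stra8-Cre acts in germ cells from early spermatogonia onward, and the floxed exon of *Mfn2*, which encodes a fusion protein of the outer mitochondrial membrane, is deleted there. Cells labelled P (pachytene) and L/Z (leptotene/zygotene) came from each genotype at postnatal day (PD) 24 and PD 52, separated on a gradient of albumin. Each of these 8 groups held 1 library, so a difference between 2 libraries has no replicate check.

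Complex I takes electrons from NADH, passes them along flavin and iron-sulfur clusters to ubiquinone, and pumps protons across the inner mitochondrial membrane. Its N module oxidizes NADH, its Q module reduces ubiquinone, and the proximal and distal parts of its membrane arm carry the proton path. The flavin and the iron-sulfur clusters sit in a few nuclear subunits, the core ones, which also help line the ubiquinone site. The others are accessory subunits that hold the complex together or help it assemble. Male germ cells rely on mitochondrial respiration during meiosis, and the X chromosome is silenced as they pass through pachytene, which bears on the members that lie on it.

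Depth ran from 14340665 to 20379950 reads on genes per library. *Mfn2* itself, counted over its whole length, lay at 82.2 FPKM in L/Z WT and 34.3 in L/Z cKO at PD 24, and at 77.1 in P WT and 39.6 in P cKO. At PD 52 it lay at 97.5 in L/Z WT, 47.9 in L/Z cKO, 62.2 in P WT and 50.1 in P cKO, so it was lower in cKO in each of the 4 pairs, least in P cells at PD 52 (80.5% of WT). The stage labels were checked against marker genes. The 10 leptotene and zygotene markers summed to 233 to 262 FPKM in the P libraries and 163 to 183 in the L/Z libraries at PD 24, and to 179 to 193 against 95.3 to 144 at PD 52. The sums are carried by *Sycp2*, *Sycp1* and *Hormad1*, and the list was split: 5 of 10 markers (*Dmc1*, *Mei1*, *Gm960*, *Prdm9* and *Rad51ap2*) were higher in L/Z than in P cells in WT at both ages, and 6 of 10 in cKO at PD 24 and 5 of 10 in cKO at PD 52. The 12 spermatid markers, all above FPKM 1 in every library, summed to 1252 FPKM in P WT, 116 in P cKO, 2504 in L/Z WT and 416 in L/Z cKO at PD 24. At PD 52 they summed to 4774, 2182, 10703 and 19741, so they were lower in cKO in 3 of the 4 pairs. Leydig cell markers (7 genes) summed higher in cKO in each pair, with 255 FPKM in P WT and 641 in P cKO at PD 52. The macrophage markers (9 genes) were highest in the L/Z cKO libraries, 142 and 280 FPKM against 10.7 to 60.6 in the other 6. Pachytene markers (9 of 10 found in the table) summed to 3364 to 6071 FPKM and spermatogonial markers (9 genes) to 47.7 to 190. The 7 Sertoli cell markers summed to 37.3 to 139 in the P and 3.84 to 46.8 in the L/Z libraries, and the 6 peritubular myoid markers to 37.8 to 59.5 and 161 to 208. All of these markers were above 0 in every library, and their part in the results was not tested. In these mixed samples, fewer cells of a type and less RNA per cell cannot be told apart. The pairs are given within each age, and the fits also without the 2 L/Z libraries at PD 52, except the fit for stage by age, which could not be fitted without them.

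The most abundant member was *Ndufa2*, an accessory subunit of the N module, with a median of 121 FPKM. The least abundant of the 37 was *Ndufab1*, the mitochondrial acyl carrier protein, which also serves fatty acid synthesis and sits at more than a single place in the complex, with a median of 2.67 FPKM. *Ndufb2* was lower still, at a median of 0.819 FPKM. These levels depend on the gene lengths in the table. For 34 of the 38 members that length equals the union of all annotated exons, and for 10 members it is at least 2 times the length of the principal transcript in GENCODE M21, up to 7.26 times for *Ndufb7*. If all reads of a gene came from its principal transcript, *Ndufb7* would move from a median of 10.4 to 75.5 FPKM, *Ndufs1* from 11.4 to 34.6 and *Ndufa7* from 54.2 to 175, which would make *Ndufa7* the most abundant member. *Ndufab1* (5.28) and *Ndufb2* (1.05) would stay the lowest. Levels are compared between genes only with this limit, while the ratio of a gene's FPKM between libraries does not depend on the length.

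Values for a gene are given in the order L/Z WT, L/Z cKO, P WT and P cKO, first at PD 24 and then at PD 52. *Ndufv1*, the core subunit that binds NADH and the flavin, had 38.8, 49.6, 51.4 and 44.5 FPKM at PD 24 and 41.4, 40.4, 59.2 and 38.6 at PD 52. *Ndufv2*, its iron-sulfur partner, had 75, 101, 76.7 and 74.3 FPKM, then 90.6, 110, 157 and 87.8. *Ndufs1*, the largest core subunit and the holder of several iron-sulfur clusters of the N module, had 10.4, 14, 11.4 and 11.9 FPKM, then 9.52, 9.76, 11.3 and 11.4. *Ndufv1* and *Ndufv2* were highest in the P WT library at PD 52 and *Ndufs1* in L/Z cKO at PD 24, with ratios of the highest to the lowest library of 1.53, 2.12 and 1.47.

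In the Q module, *Ndufs3*, a core subunit without a cluster, had 26, 37.8, 29.7 and 27.9 FPKM at PD 24, then 36.2, 36, 53.5 and 30.7. The core subunits *Ndufs7* and *Ndufs8* carry the last iron-sulfur clusters before ubiquinone. *Ndufs7* had 17.3, 27.1, 21.4 and 17.6 FPKM, then 15.1, 14.4, 29 and 16.5. *Ndufs8* had 25, 43.2, 36 and 33.9 FPKM, then 17.9, 20.1, 53 and 22.9. These 3 genes were highest in the P WT library at PD 52, by factors over the next library from 1.07 for *Ndufs7* to 1.42 for *Ndufs3*.

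**Figure D1:**
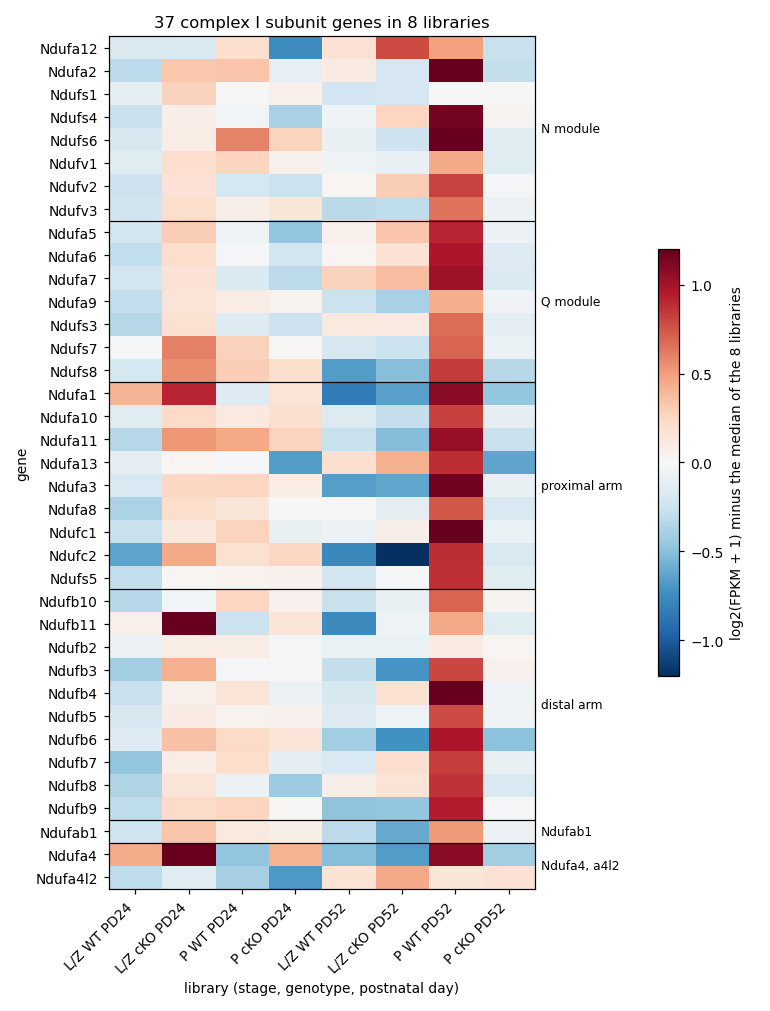
Levels of 37 of the 38 members (rows, grouped by part of the complex) in the 8 libraries (columns), as log2(FPKM + 1) minus the gene's median over the libraries, in red where higher and blue where lower. The column of P WT PD52 is red for nearly every member, with *Ndufs1*, *Ndufb2* and *Ndufa4l2* close to white there.

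The library of P WT cells at PD 52 stood apart for these genes. In it 33 of the 38 members had their highest FPKM, or 32 of the 37 above FPKM 1, while 10.6% of all 21175 genes did. The FPKM of the members summed to 2337 there and to between 1065 (L/Z WT at PD 24) and 1507 (L/Z cKO at PD 24) in the other 7 libraries. The median member was 1.43 times its next highest library. Over all 8 libraries the median ratio of a member's highest to its lowest FPKM was 2.65, and over the other 7 it was 1.61. The exceptions above FPKM 1 were *Ndufb11*, *Ndufs1* and *Ndufa4*, highest in L/Z cKO at PD 24, and *Ndufa12* and *Ndufa4l2*, highest in L/Z cKO at PD 52. The 8 members of the N module summed to 714 FPKM in that library against 308 to 417 in the others, the 8 of the Q module to 536 against 268 to 384, the 9 of the proximal membrane arm to 618 against 264 to 378, and the 10 of the distal arm to 401 against 176 to 262. All 4 parts of the complex were therefore highest in the same library, and their ranges over the other 7 did not reach it.

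**Figure D2:**
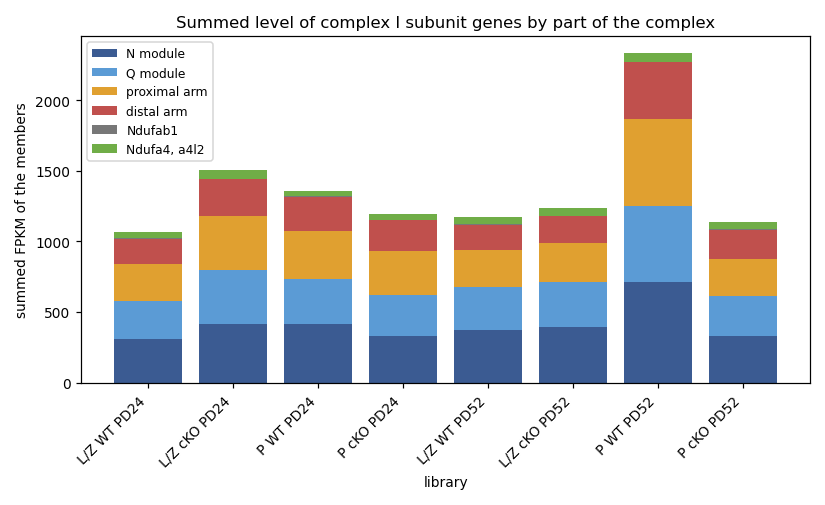
Summed FPKM of the members in each library, stacked by part of the complex. The bar of P WT PD52 reaches 2337 and the other 7 lie between 1065 and 1507.

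Gene length moved with this. The members are short, with a median of 1532 bases against 3906 for the 14059 protein-coding genes above FPKM 1, and 33 of 38 are shorter than that. Protein-coding genes were placed in 5 equal classes of length. In P cells at PD 52 the median cKO minus WT difference of log2(FPKM + 1) was -0.43 over protein-coding genes of the shortest class and 0.15 over the longest. The 24 members of the shortest class had a median of -1.15, the 8 of the next class -0.75, and the single member of the longest class, *Ndufs1*, 0.01. With the trend over length removed (a choice made after the data were seen), the median of the 37 members was -0.62 in place of -0.97 in this pair, 0.89 in place of 0.97 for P minus L/Z in WT at PD 52, and 0.17 in place of 0.71 for PD 52 minus PD 24 in P WT. The part of fragment length or RNA quality in the trend was not tested.

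**Figure D3:**
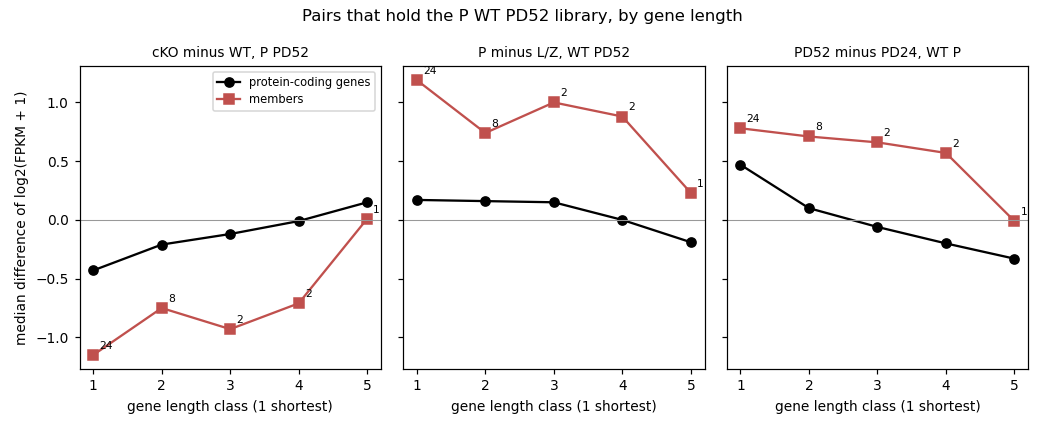
Median difference of log2(FPKM + 1) in the 3 pairs that hold the P WT PD52 library, by class of gene length from the shortest (1) to the longest (5), for protein-coding genes (black) and members (red, with the number of members beside each point). In P cells at PD 52 the members lie below the protein-coding genes in every class, from -1.15 in class 1 to 0.01 in class 5.

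The study compared MFN2 cKO with WT to learn what loss of this fusion protein does in spermatocytes. Across the 4 pairs the complex I subunits had no common direction. In P cells at PD 52, 32 of 37 members were at least 1.5-fold lower in cKO on the log2(FPKM + 1) scale, against 16.5% of all genes, and 0 were that much higher, against 12.8%. The median of the members was -0.97 and that of all genes -0.05. In L/Z cells at PD 24, 9 of 37 were at least 1.5-fold higher, against 11.9% of all genes, and 0 lower, against 13.6%, with a median of 0.46 (all genes 0.08), and with the length trend removed the 9 became 3 and the median 0.20. P cells at PD 24 had 1 such member higher (5.19% of all genes) and 2 lower (12.0%), and their median was -0.14. L/Z cells at PD 52 had 2 higher (11.3%) and 0 lower (9.25%), and a median of 0.03. Lower levels in cKO thus stood out from the background in P cells at PD 52, the pair that holds the library described above. Without the length trend the 32 became 19. Markers of other cells were also lower in cKO in this pair: those of spermatids from 4774 to 2182 FPKM (11 of 12 lower), of Sertoli cells from 92.4 to 37.3 (7 of 7) and of spermatogonia from 118 to 57.5 (6 of 9). Those of Leydig cells (7 of 7) and of macrophages (7 of 9) were higher. Of the other lists, 0 of 6 peritubular myoid, 1 of 10 leptotene and zygotene and 4 of 9 pachytene markers were higher. In L/Z cells at PD 24, 0 of 12 spermatid and 0 of 7 Sertoli markers were higher in cKO. Higher there were 7 of 7 Leydig, 8 of 9 macrophage and 8 of 9 spermatogonial markers. The part of these markers in either pair was not tested.

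**Figure D4:**
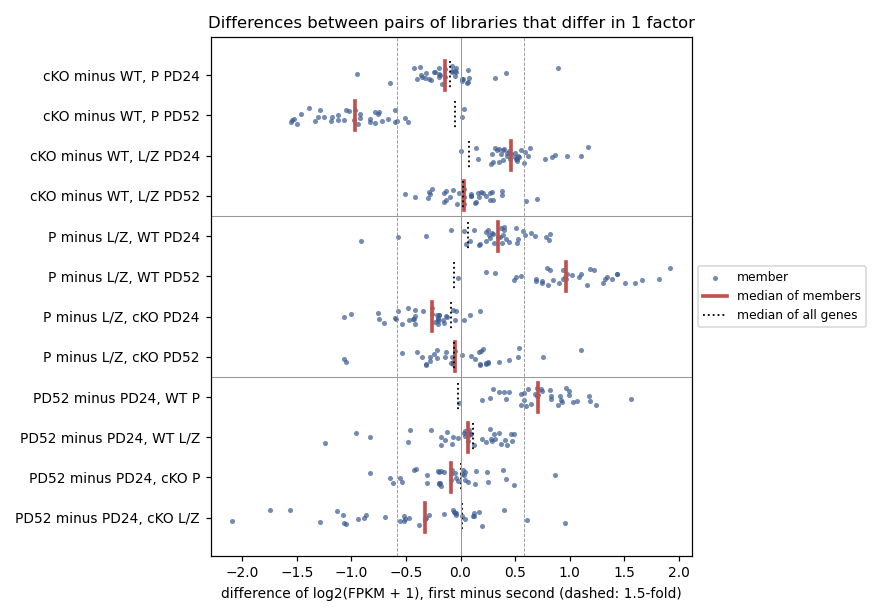
Differences of log2(FPKM + 1) for the 37 members above FPKM 1 (points) in the 12 pairs of libraries that differ in genotype, stage or age only, with the median of the members (red) and of all genes (dotted). The members lie far from the all-gene median in the 3 pairs that hold P WT PD52, with medians of -0.97, 0.97 and 0.71.

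The 5 members with the largest genotype differences all lay in P cells at PD 52. Intervals here and below are exact binomial (Clopper-Pearson) 95% intervals from the reads and cover counting error only. *Ndufa1*, a small membrane subunit needed for assembly, had 39.5, 56.5, 26.4 and 33.1 FPKM at PD 24 and 16.1, 18.4, 63.8 and 21.2 at PD 52, and its difference in P cells at PD 52 was -1.55 (-1.83 to -1.27). *Ndufa2* had 96.7, 151, 152 and 113 FPKM, then 129, 105, 288 and 98.8, with a difference of -1.54 (-1.65 to -1.42). *Ndufa13*, also known as GRIM-19, had 31, 34.3, 33 and 20.7 FPKM, then 38.7, 45.6, 63.1 and 21.3, with a difference of -1.53 (-1.69 to -1.37). In each of these genes the P cKO library at PD 52 lay close to the lower libraries of the other groups, and the P WT library was the highest. *Ndufa4* differed by -1.50 (-1.75 to -1.26). *Ndufb6*, a distal arm subunit, had 25, 36, 32.9 and 31.2 FPKM, then 20.6, 16.5, 55.7 and 19.6, with a difference of -1.46 (-1.70 to -1.23). All 9 members of the proximal arm and all 9 of the distal arm above FPKM 1 were at least 1.5-fold lower in this pair, with 7 of 8 in the N module and 6 of 8 in the Q module. *Ndufs1* (0.01, -0.09 to 0.11) and *Ndufa4l2* (0.03, -0.12 to 0.17) did not differ beyond counting error.

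Of the core subunits, *Ndufv1* differed in P cells by -0.20 (-0.29 to -0.12) at PD 24 and by -0.60 (-0.70 to -0.51) at PD 52, and in L/Z cells by 0.35 (0.26 to 0.43) and -0.03 (-0.14 to 0.07). In L/Z cells at PD 24 the members more than 2-fold higher in cKO on the log2(FPKM + 1) scale were *Ndufb11*, a distal arm subunit, at 1.17 (0.94 to 1.39), and *Ndufc2*, a proximal arm subunit, at 1.10 (0.88 to 1.32), and the plain FPKM of *Ndufa4* was 2.04 times that in WT. The largest difference in P cells at PD 24 was that of *Ndufa12*, an accessory subunit that joins the N and Q modules, at -0.95 (-1.09 to -0.82). It had 32.8, 32.7, 42.8 and 21.7 FPKM, then 42.2, 64.7, 52.8 and 30.7, so it was lower in cKO in both P pairs and higher in L/Z cells at PD 52, by 0.60 (0.49 to 0.72).

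The 4 pairs were then taken as repeats of the genotype contrast in limma, with stage and age as covariates, over 21175 genes. No member was called for genotype at a Benjamini-Hochberg adjusted p of 0.05 (0 of 37, with 0 at an unadjusted p under 0.05, against 6.82% of all genes), and 0.0142% of all genes were (3 genes). *Mfn2* itself, lower in cKO in each pair, was not called in this fit either (-0.87, limma adjusted p = 0.336). limma-voom on reads recovered from the FPKM also called 0 members. The lowest adjusted p among the members was 0.844, and the fitted differences ran from -0.45 to 0.42 with a median standard error of 0.26. Without the 2 L/Z libraries at PD 52, 0 were called and the lowest adjusted p was 0.658, and 0 of all genes were called. In the fit for genotype by age, 0 members were called (1 at an unadjusted p under 0.05, against 9.11% of all genes, and 4 in limma-voom, against 12.1%), with 0.00472% of all genes called. Without the 2 L/Z libraries at PD 52 again 0 were called, with 11 at an unadjusted p under 0.05 (17.1% of all genes) and a lowest adjusted p of 0.273, in a fit with 1 residual degree of freedom. *Ndufc2* was the nearest over all 8 libraries, at -1.37 (SE 0.57, limma adjusted p = 0.539). In the fit for genotype by stage, added after the data were seen, all 37 differences were lower in P than in L/Z cells, with a median of -0.88. The 37 rest on the same 8 libraries, and the share of all genes with this sign was not counted. Medians in this fit were -0.80 for subunits of complexes III, IV and V, -0.29 for assembly factors and -0.21 for X chromosome genes. The length trend was not removed in the fits. Of the members 0 were called (9 at an unadjusted p under 0.05, against 4.03% of all genes, and 10 in limma-voom, against 2.92%, with a lowest adjusted p of 0.979 in limma), as were 0% of all genes. Those 9 became 0 without the 2 L/Z libraries at PD 52 (2.48% of all genes) and 6 without the P WT library at PD 52 (3.05%). *Ndufa13* (-1.28, SE 0.35) and *Ndufa12* (-1.16, SE 0.32) had the lowest unadjusted values there, both with a limma adjusted p of 0.979.

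Between stages, the P and L/Z libraries differed most in WT at PD 52, where 31 of 37 members were at least 1.5-fold higher in P cells (20.7% of all genes) and 0 lower (24.2%), with a median of 0.97. WT cells at PD 24 had 6 higher (19.8%) and 1 lower (20.8%), and a median of 0.34. In cKO the members did not share this direction. Of the 37, 0 lay higher (17.2%) and 7 lay lower (24.4%) at PD 24, where the median was -0.26. PD 52 gave 2 higher (20.0%) and 2 lower (27.5%), and the median was -0.05. With the length trend removed these medians became 0.37 and 0.89 in WT and 0.07 and 0.34 in cKO, so the sign in cKO turned. In limma 0 members were called for stage, against 25.4% of all genes, with 1 at an unadjusted p under 0.05, against 40.3% (3 in limma-voom, against 42%). *Ndufb10*, a distal arm subunit, came nearest at 0.44 (SE 0.19, adjusted p = 0.122). It had 42.7, 52.9, 64.9 and 56.3 FPKM, then 45, 50.9, 88.5 and 55.6, so its P library was above its L/Z library in all 4 pairs. Without the 2 L/Z libraries at PD 52 the lowest adjusted p for stage was 0.393, and 0 of all genes were called. *Ndufc2* was at least 1.5-fold higher in P cells in 3 of 4 pairs, with 16.4, 36.1, 29.6 and 31.1 FPKM, then 14.8, 10.1, 48.9 and 22.8, and a fitted difference of 0.84 (SE 0.37, adjusted p = 0.133). It was called (limma adjusted p = 0.0327) only where the cKO pair at PD 24, the pair in which P was lower, was left out. In the fit for stage by age 0 members were called (1 at an unadjusted p under 0.05, against 5.02% of all genes, and 2 in limma-voom, against 4.58%), with 0% of all genes.

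Between ages, 25 of 37 members were at least 1.5-fold higher at PD 52 in P WT cells (20.1% of all genes) and 0 lower (15.4%), with a median of 0.71. The other 3 pairs had few members past 1.5-fold upward. L/Z WT cells had 0 higher (21.4%) and 3 lower (13.1%), their median was 0.07, and the counting interval lay above 0 for 14 members and below 0 for 7. P cKO cells had 1 higher (22.4%) and 3 lower (15.7%), with a median of -0.09. L/Z cKO cells had 2 higher (29.3%) and 12 lower (27.4%), their median was -0.33, and *Ndufa12* lay highest at 0.96. The count of 12 is near the background. By sign alone, 10 members were higher at PD 52 in all 4 pairs: *Ndufa4l2*, *Ndufa5*, *Ndufa7*, *Ndufa12*, *Ndufa13*, *Ndufb4*, *Ndufb7*, *Ndufb8*, *Ndufs4* and *Ndufv2*. The share of all genes with such signs was not counted, so this list has no background. With the length trend removed the sign turned for some of them, such as *Ndufa4l2* (-0.04) and *Ndufa12* (-0.07) in P WT and *Ndufb4* (-0.03) in L/Z WT.

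In limma a single member was called for age, against 21.0% of all genes: *Ndufa4l2*, a relative of *Ndufa4* known as a target of the hypoxia-inducible factor in other tissues. It had 30.4, 34, 28.4 and 23 FPKM at PD 24 and 42.5, 52.3, 42 and 42.8 at PD 52, so the ages did not overlap. It was higher at PD 52 in all 4 pairs, by 0.62 (SE 0.15, limma adjusted p = 0.0274). The spermatid markers also summed higher at PD 52 in each of these pairs, and their part in this was not tested. The call was lost when the L/Z WT, the L/Z cKO or the P cKO pair was left out (adjusted p = 0.118, 0.0914 and 0.164) and without the 2 L/Z libraries at PD 52 (0.2), while the difference stayed between 0.54 and 0.71. In those 4 settings 0 of all 21175 genes were called. With the length trend removed, its differences were 0.23 in L/Z WT, 0.62 in L/Z cKO, 0.75 in P cKO and -0.04 in P WT. Without the P WT library at PD 52, a choice made after the data were seen, 6 of 37 members were called for age, against 29.2% of all genes. *Ndufa4l2* was higher at PD 52, and *Ndufa1*, *Ndufa4*, *Ndufb6*, *Ndufb11* and *Ndufs8* were lower.

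*Ndufa4*, which is now counted as a subunit of complex IV and has kept its complex I name, moved unlike *Ndufa4l2*. It had 14, 28.6, 6.96 and 13.7 FPKM at PD 24 and 6.72, 5.94, 22.4 and 7.28 at PD 52. At PD 24 it was higher in cKO in L/Z cells, by 0.98 (0.81 to 1.16), and in P cells, by 0.89 (0.66 to 1.12), and lower in P than in L/Z cells in both genotypes. At PD 52 the P WT library was the highest and the other 3 lay between 5.94 and 7.28. It was at least 1.5-fold lower at PD 52 in 3 of 4 pairs and higher in P WT, and its fitted age difference of -0.58 (SE 0.52, limma adjusted p = 0.425) was not called. *Ndufab1* had 2.1, 3.62, 2.97 and 2.85 FPKM, then 1.95, 1.41, 4.22 and 2.48, and so followed the common pattern at a low level.

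**Figure D5:**
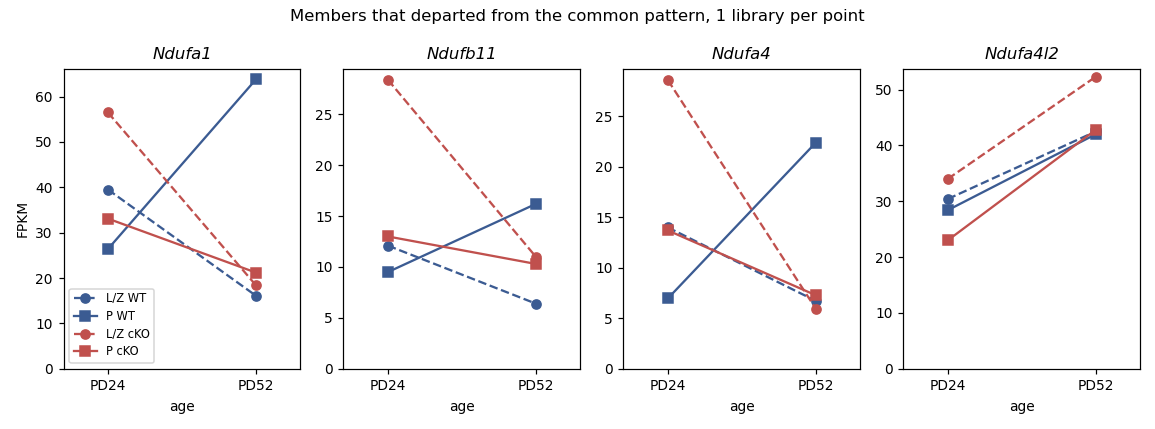
FPKM of *Ndufa1*, *Ndufb11*, *Ndufa4* and *Ndufa4l2* at PD 24 and PD 52, with 1 library per point (blue WT, red cKO, circles and dashed lines L/Z, squares and solid lines P). For *Ndufa4l2* all 4 lines lead upward, from between 23 and 34 FPKM at PD 24 to between 42 and 52.3 at PD 52, while in the other 3 genes only P WT leads upward.

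The members on the X chromosome are *Ndufa1* (chrX:37187588-37191163) and *Ndufb11* (chrX:20615326-20617619), both on the reverse strand of GRCm38. *Ndufb11* had 12.1, 28.4, 9.5 and 13 FPKM at PD 24 and 6.4, 11, 16.2 and 10.3 at PD 52. At PD 24 P was below L/Z for both genes and both genotypes. For *Ndufa1* the difference was -0.57 (-0.81 to -0.32) in WT and -0.75 (-0.98 to -0.53) in cKO, and for *Ndufb11* it was -0.32 (-0.59 to -0.05) and -1.07 (-1.29 to -0.85). The 35 autosomal members had medians of 0.36 and -0.23 in the same pairs, and all protein-coding genes of the X chromosome above FPKM 1 had -0.59 (535 genes) and -0.68 (554 genes). With the length trend removed the differences became -0.11 in WT and 0.16 in cKO for *Ndufa1*, and -0.05 and -0.39 for *Ndufb11*, while those of the X chromosome were -0.57 and -0.43. At PD 52 in WT the order was the other way, with 1.92 (1.62 to 2.23) for *Ndufa1* and 1.22 (0.89 to 1.54) for *Ndufb11*, beside -0.18 for the X chromosome. In cKO at PD 52 the differences were 0.19 (-0.17 to 0.55) and -0.08 (-0.40 to 0.23), within counting error, beside -0.49. Both genes were also lower at PD 52 than at PD 24 in every group other than P WT. The protein-coding genes of the X chromosome had medians of -0.38 in L/Z WT, -0.61 in L/Z cKO, -0.43 in P cKO and 0.16 in P WT for the same contrast, with the same signs. Over all 8 libraries 0 of the 2 were called for stage, while 54 of 606 X chromosome genes were called higher and 173 lower in P cells. Of all 21175 genes, 2508 were called higher and 2880 lower.

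The sequence before the start of transcription in RefSeq is shown for 4 members, those on the X chromosome and, from the autosomes, the core subunit gene *Ndufs3* and the accessory subunit gene *Ndufa8*. The autosomal pair was chosen after the matches were seen, because it holds several of the motifs, and does not stand for the other members. Each line gives the 150 bases upstream of the start in RefSeq, from 5′ to 3′ on the strand of the gene in GRCm38.p6, all on the reverse strand. They lie at chr2:90904722-90904871 (*Ndufs3*), chr2:36049339-36049488 (*Ndufa8*), chrX:37191239-37191388 (*Ndufa1*) and chrX:20617620-20617769 (*Ndufb11*). By the deposited coordinates *Ndufs3* (up to 90904827) and *Ndufa8* (up to 36049406) begin inside these windows. The marked letters of *Ndufs3* and the NRF1 cores of *Ndufa8* then lie within the gene, not before it. Capitals mark the letters of the 5 motifs searched, on either strand: the ETS core CCGGAA, the SP1 box GGGCGG, the NRF1 core GCATGCG, the YY1 core AAGATGG and the CRE core TGACGTC.
Ndufs3: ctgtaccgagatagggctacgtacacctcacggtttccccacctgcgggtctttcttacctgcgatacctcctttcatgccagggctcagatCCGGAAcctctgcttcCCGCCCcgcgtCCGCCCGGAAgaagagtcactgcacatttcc
Ndufa8: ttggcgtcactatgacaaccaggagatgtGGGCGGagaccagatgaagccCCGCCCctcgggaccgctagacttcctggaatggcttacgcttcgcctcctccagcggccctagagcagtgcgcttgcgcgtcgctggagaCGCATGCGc
Ndufa1: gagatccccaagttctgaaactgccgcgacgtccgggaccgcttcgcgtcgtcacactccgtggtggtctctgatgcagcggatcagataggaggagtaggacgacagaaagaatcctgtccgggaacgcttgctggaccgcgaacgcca
Ndufb11: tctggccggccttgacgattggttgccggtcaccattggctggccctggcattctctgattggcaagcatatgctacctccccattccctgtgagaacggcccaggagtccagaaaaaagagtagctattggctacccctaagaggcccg
*Ndufs3* held 2 ETS cores and 2 SP1 boxes, of which the pair nearest the start overlapped, and *Ndufa8* 2 SP1 boxes and 2 overlapping NRF1 cores on opposite strands, while the X chromosome pair held none of these letters in this window. Over 250 bases before the start, 33 members had an entry. The ETS core was found in 8 of them (24.2%), and in 23.4% of 10952 protein-coding genes above FPKM 1 and 13.6% of all 27025 genes listed. The NRF1 core was found in 3 members (9.09%, against 5.89% and 3.43%) and the CRE core in 4 (12.1%, against 4.98% and 3.16%). The SP1 box was found in 14 (42.4%, against 59.8% and 35.4%), and the YY1 core in 0 (against 5.2% and 5.18%). A gene with several listed starts counted as holding a motif where any of them did. In 12 of the 33 members none of the 5 was found.

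Some members share sequence with other genes, and their values are less certain for it. Of the 38, 22 shared no window of 50 bases with a transcript of another gene, and 5 shared at least 20% of the windows of their principal transcript: *Ndufb4* (37%, with the processed pseudogene *Ndufb4c* among others), *Ndufs3* (35.8%), *Ndufs5* (31.1%), *Ndufa12* (26.2%) and *Ndufb9* (23.4%). The copy of *Ndufa12*, the processed pseudogene *Gm15920*, was listed at 81.4, 92.7, 53.8 and 63.1 FPKM, then 98.1, 126, 147 and 126. By FPKM this was above *Ndufa12* itself in every library. The listed lengths are 402 bases for the copy and 1569 for *Ndufa12*, so the order by FPKM is not an order by reads. Exons of another gene covered at least 20% of the exon bases of *Ndufb6* (39%, *Smim27*) and *Ndufa13* (30%, *Tssk6*). *Tssk6*, a spermatid kinase, had 23.3, 1.86, 13.4 and 1.01 FPKM, then 103, 144, 50.3 and 17.4, and its part in the values of *Ndufa13* was not tested. Of the rows left out by biotype, *Ndufb1-ps* had 31.3, 46, 34.1 and 25.8 FPKM, then 43.2, 52.5, 85.5 and 33.9, and was also highest in P WT at PD 52.

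The other genes of the pathway are given for comparison. Of the assembly factors, which build the complex and are not part of it, 6 of 17 above FPKM 1 were at least 1.5-fold lower in cKO in P cells at PD 52 (16.5% of all genes) and 0 higher (12.8%). Their median was -0.50, or -0.29 with the length trend removed. In limma, 4 of 18 assembly factors were called for stage and 1 of 18 for age, near or below the 25.4% and 21.0% of all genes. For stage these were *Ndufaf3*, *Ndufaf7* and *Tmem186* higher in P cells and *Ecsit* lower, and for age *Nubpl*, which delivers iron-sulfur clusters and was higher at PD 52. *Ndufaf3* had 92.6, 115, 210 and 172 FPKM, then 122, 140, 264 and 181, above the L/Z library in each of the 4 pairs. The nuclear subunits of complexes III, IV and V had these medians in the pairs with the P WT library at PD 52: -0.86 for cKO minus WT, 0.96 for P minus L/Z and 0.76 for PD 52 minus PD 24. With the length trend removed these became -0.48, 0.90 and 0.32. Of these subunits, 30 of 41 were at least 1.5-fold lower in cKO in P cells at PD 52, against 16.5% of all genes. The 7 complex I subunits encoded in mitochondrial DNA had medians of -0.25, 0.83 and -0.58 in the same 3 pairs. With the length trend removed these became 0.26, 0.72 and -1.11, so the sign for genotype turned. Of the 7, 5 were at least 1.5-fold higher in P than in L/Z cells in WT at PD 52, against 20.7% of all genes. In limma 2 of 7 (*mt-Nd2* and *mt-Nd5*) were called higher in P cells, the lowest adjusted p being 0.0317, and 4 of 7 (*mt-Nd2*, *mt-Nd4*, *mt-Nd5* and *mt-Nd6*) were called lower at PD 52 in limma, the lowest adjusted p being 0.0112.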

How the data were processed

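RNA was sequenced from 8 libraries, 1 for each stage, genotype and age. Per the labels, the RNA was extracted with Trizol and 1 ug went into NEBNext Ultra libraries, and the methods state paired-end Illumina sequencing, FPKM from Novomagic and DESeq2 for the differences. The submitters' processing notes name CASAVA 1.4, Bowtie 0.12.2 and the builds mm8 and mm9, while the coordinates in the deposited table are those of GRCm38. The ages are those of the labels, while the study's text also names a later day for the older mice. Since the builds in the notes are not that of the table, it is not settled that the Bowtie named there was its aligner. The annotation behind the table is not given in the sources used here. The FPKM values were deposited by the authors on a linear scale with the gene lengths used. FPKM times length fell on whole multiples of 1 step per library (100% of values within 0.01), which gave the reads. The steps differ from plain per-million scaling by 0.874 to 1.15, so libraries had been scaled further.

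The members and lists were chosen with earlier results of these data known. Differences are of log2(FPKM + 1), a scale that understates changes of low genes, over genes above FPKM 1 in at least 1 of the 2 libraries, counted past 1.5-fold. Fits used limma 3.58.1 (R 4.3.3) with a mean-variance trend over genes above FPKM 1 in at least 1 library, stage, age and genotype as additive terms, or with 1 interaction, and Benjamini-Hochberg adjustment over all genes. The p-values measure how far the 4 pairs differ, not the spread between mice. All 8 per-sample columns were used. Of the fits, only that for genotype was also run on simulated data, and its outcome there is not used here. Other settings tried were 0.1 as the pseudocount, no filter, a further scaling by median of ratios over 11566 genes, protein-coding genes only, limma-voom on the reads, a pair block, a 2-fold threshold and libraries left out. Removal of a length trend (lowess, span 0.3, on log2 gene length), the fits without P WT at PD 52, the genotype by stage fit and that fit without the 2 L/Z libraries at PD 52 were added after the data were seen. Named with all 8 values were, by rule, the members on the X chromosome, the core subunits, *Ndufab1*, *Ndufa4*, *Ndufa4l2*, those with the highest and lowest median, those called, those past 1.5-fold in the same direction in at least 3 of 4 pairs, and up to 5 past 2-fold in a genotype pair. 1 of the members is counted but not reported singly here. Members named beyond this, such as *Ndufa12* and *Ndufb10*, were chosen after their values were seen. Promoters are from RefSeq (GRCm38.p6) and transcripts from GENCODE M21. qPCR, protein and imaging data were not analysed here.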

Additional observations from a re-analysis of the deposited data

Results flagged for a closer look

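In 3 cases the median log2(FPKM + 1) difference of the 37 members had opposite signs in every pair of the 2 groups compared. None of these differences between groups was tested on the medians, and all rest in part on the P WT library at PD 52. With the length trend removed the opposite signs were lost in all 3 cases, since the medians became -0.05 for genotype in L/Z cells at PD 52, 0.07 and 0.34 for stage in cKO, and -0.03 for age in L/Z WT. The genotype difference was negative in P cells (-0.14 at PD 24 and -0.97 at PD 52) and positive in L/Z cells (0.46 and 0.03), a mean difference of -0.80. The stage difference was positive in WT (0.34 and 0.97) and negative in cKO (-0.26 and -0.05), a mean difference of 0.81. This is the pattern of genotype by stage again, read the other way from the same 8 libraries, so the first 2 cases are not separate. The age difference was positive in WT (0.71 in P and 0.07 in L/Z) and negative in cKO (-0.09 and -0.33), a mean difference of 0.60. For single members the first 2 cases were tested in limma as genotype by stage, where 0 of 37 were called (lowest adjusted p = 0.979). The third was tested in limma as genotype by age, where 0 of 37 were called as well (lowest adjusted p = 0.539).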

How the results depend on the processing

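Of the alternative values, 52 of 60 medians, 42 of 60 counts past 1.5-fold and 49 of 56 counts of called members stayed within their limits (counting error for medians, 1.5 times for counts). The pseudocount, limma-voom and the pair block moved none of them, nor did the FPKM filter or the restriction to protein-coding genes. That restriction could not change a median, since every member is protein-coding, and its medians are among the 52. Lifting the filter added only *Ndufb2* to the members. Further scaling moved P minus L/Z in WT at PD 24 to a median of 0.19 with 3 members higher. With the length trend removed, the medians of 4 pairs changed sign: -0.05 for cKO minus WT in L/Z at PD 52, 0.07 and 0.34 for P minus L/Z in cKO at PD 24 and PD 52, and -0.03 for PD 52 minus PD 24 in L/Z WT. Those of 3 pairs shrank: to -0.62 for cKO minus WT in P at PD 52, 0.20 in L/Z at PD 24, and 0.17 for PD 52 minus PD 24 in P WT. Counts past 1.5-fold then became 1 (cKO minus WT, P at PD 24), 19 (P at PD 52), 3 (L/Z at PD 24) and 0 (L/Z at PD 52), 13 and 0 (P minus L/Z at PD 24 in WT and cKO), and 13 and 7 (PD 52 minus PD 24 in P WT and P cKO). At 2-fold, the counts for cKO minus WT were 0 and 17 in P cells at PD 24 and PD 52 and 2 and 0 in L/Z cells. For P minus L/Z they were 0 and 17 in WT at PD 24 and PD 52 and 2 in cKO at PD 24, and for PD 52 minus PD 24 they were 6 in P WT and 0 in P cKO. The number of members called for age ran from 0 to 3 as each pair was left out, was 0 without the 2 L/Z libraries at PD 52 and 6 without the P WT library at PD 52, and the number called for stage ran from 0 to 1. In each setting that gave 0 for age, 0 of all genes were called too. Leaving out libraries lowers the residual degrees of freedom as well, and the cause of these shifts was not tested. Genes called over the whole table for genotype by age numbered 1, against 54 with a pseudocount of 0.1 and 326 in limma-voom, in neither case a member. The labels number no replicates.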
